A study of Mus musculus with 2 samples.

Results

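The major histocompatibility complex (MHC) and antigen presentation genes were taken here as the genes with an H2 symbol and at least 1 protein-coding transcript, together with B2m, Tap1, Tap2, Tapbp, Cd74, Ciita and Nlrc5. This rule gave 44 of 55536 mouse genes, and it used gene names and transcript types, not measured levels. The samples were heart tissue of 2 adult male B6CASTF1/J mice, which are first-generation offspring of C57BL/6J and CAST parents. Total RNA was sequenced with 1 library per animal, labelled as animal 2 (replicate 1) and animal 4 (replicate 2), although both carry the same donor entry. Both mice were 8 to 10 months old, no treatment is named in the labels, and 300 ng of RNA with ERCC spike-in RNA went into each library after ribosomal RNA reduction. No other group exists, so levels are described and the 2 animals are set side by side, without p-values. The spread given below is that between these 2 libraries.

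Class I molecules present peptides from the cytosol to CD8 T cells on nearly all nucleated cells. Each consists of a heavy chain and the light chain beta-2 microglobulin, and is loaded in the endoplasmic reticulum with peptides that the TAP transporter brings in. Class II molecules present peptides from endosomes to CD4 T cells, mainly on macrophages, dendritic cells and B cells. They depend on the invariant chain and on the exchange factor DM, which DO restrains. The regulator NLRC5 drives class I genes and CIITA drives class II genes, both through DNA-bound factors at shared promoter boxes. In the heart, class I is known from endothelial and other non-muscle cells, and class II mainly from resident immune cells.

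Levels are given in TPM, a value corrected for transcript length that sums to the same total in each library, and ± is the SD over 2 libraries (n = 2). The libraries held 42.05 M and 39.98 M expected counts on mouse genes. Of these, 15766 counts in replicate 1 and 12646 in replicate 2 lay on the 44 genes, which is 375 and 316.3 per 1 M counts. The heart label held: 6 of 6 cardiomyocyte markers, among them Myh6 and Myl2, were detected, with a summed level of 25472 and 27840 TPM. Markers of other sources stood apart in replicate 1. The 5 lung epithelium markers held 894 counts in replicate 1 and 0 in replicate 2, almost all from Bpifa1 and Scgb1a1, while the surfactant gene Sftpc had 0 in both. Chil3, a gene of alveolar macrophages, held 1574 and 2 counts.

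At least 1 TPM in both libraries was reached by 20 of the 44 genes, against 11607 of all 55536 genes. A further 14 genes had fewer than 10 summed counts, and 10 of those had 0 in both libraries, which allows up to 3 counts in each. The summed level of all 44 genes was 385.7 TPM in replicate 1 and 319.99 TPM in replicate 2. The highest levels belonged to the class I light and heavy chains, followed by H2-Ke6, the loading factor tapasin and the class II invariant chain. In position, 40 of the 44 genes lie on chromosome 17 of mm10, between bases 33915899 and 37483552. The plot of levels by role shows how these groups differ.

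**Figure D1:**
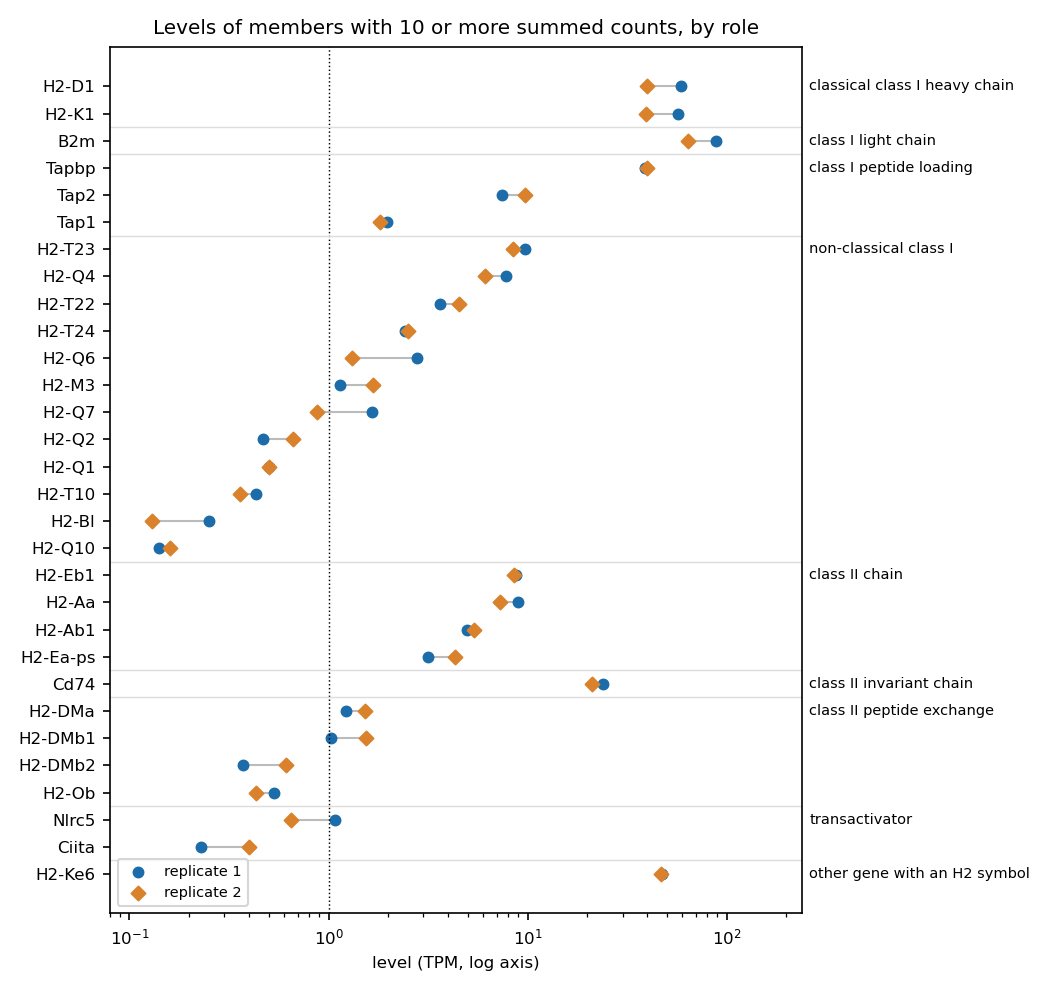
Level (TPM, log axis) of the 30 genes with 10 or more summed counts, by role, with 1 point per library. The dotted line marks 1 TPM, and the class I chains B2m, H2-D1 and H2-K1 lie between 39.23 and 88.86 TPM with replicate 1 higher, while most non-classical class I, exchange and regulator genes lie near or under 1 TPM.

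B2m, the light chain shared by class I molecules, was the highest gene of the group. It reached 88.86 TPM in replicate 1 and 63.84 TPM in replicate 2 (76.35 ± 17.7 TPM), rank 791 among all genes, and lies at chr2:122147686-122153083 (mm10). H2-D1, a classical heavy chain, reached 59.00 and 39.68 TPM, a mean of 49.3 ± 13.7 TPM, from chr17:35262730-35267499. H2-K1, the other classical heavy chain, reached 56.74 and 39.23 TPM, a mean of 48.0 ± 12.4 TPM, from chr17:33996017-34000347. In gene-level TPM the order of the 2 heavy chains could not be told from their spread. The log2 ratio of H2-K1 over H2-D1 was -0.04 ± 0.03 and became 0.09 in the second deposited quantification. Among coding models H2-D1 was higher: H2-D1-202 held 51.42 and 34.78 TPM, against 16.60 and 12.55 TPM for H2-K1-205, the highest of H2-K1. In the second quantification these were 46.6 and 30.1 TPM against 20.4 and 14.2 TPM. In unadjusted counts H2-D1 held more reads, 3717 and 2363 against 1641 and 1159 for H2-K1. The level of B2m lay below the sum of both heavy chains, with a log2 ratio of -0.34 ± 0.05. That sum includes the retained-intron model H2-K1-215, which is not coding, at 30.33 and 18.90 TPM. The ratio therefore does not give the order of B2m and the heavy chains in coding RNA.

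The promoters of the leading class I and class II genes are shown because their control runs through short shared boxes. Each sequence covers the 150 bases up to a RefSeq start of the gene, on the gene's strand, with RefSeq coordinates on GRCm38.p6. For H2-D1 that start lies inside the GENCODE gene model, and H2-K1 has a second RefSeq start that is not shown. Capitals mark 4 searched motifs on either strand: CTAGCAAC (X box core), TGACG (core of the neighbouring X2 box), CCAAT (Y box, read as ATTGG on the other strand) and an interferon response element, written as GAAA followed after any 2 bases by a further GAAA. The windows are chr2:122147537-122147686 for B2m, chr17:34000348-34000497 for H2-K1, chr17:35262944-35263093 for H2-D1, chr17:34287824-34287973 for H2-Aa and chr17:34305717-34305866 for H2-Eb1.
B2m: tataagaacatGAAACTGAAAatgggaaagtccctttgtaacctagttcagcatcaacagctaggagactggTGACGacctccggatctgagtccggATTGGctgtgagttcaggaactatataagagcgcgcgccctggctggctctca
H2-K1: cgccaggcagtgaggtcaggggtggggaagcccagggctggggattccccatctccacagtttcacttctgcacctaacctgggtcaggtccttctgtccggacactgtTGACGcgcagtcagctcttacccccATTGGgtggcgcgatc
H2-D1: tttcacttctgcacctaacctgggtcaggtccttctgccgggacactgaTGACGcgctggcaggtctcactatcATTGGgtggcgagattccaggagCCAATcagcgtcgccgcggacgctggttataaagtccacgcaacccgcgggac
H2-Aa: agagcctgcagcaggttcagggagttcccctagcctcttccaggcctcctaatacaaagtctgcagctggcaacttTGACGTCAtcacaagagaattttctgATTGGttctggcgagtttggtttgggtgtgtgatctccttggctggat
H2-Eb1: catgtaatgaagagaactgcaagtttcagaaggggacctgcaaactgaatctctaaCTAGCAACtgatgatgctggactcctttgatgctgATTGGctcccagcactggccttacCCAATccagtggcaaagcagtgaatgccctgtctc

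In B2m the X2 core lay 78 to 74 bases before the start and the reversed Y box 53 to 49 bases before it. H2-D1 had them at 101 to 97 and 76 to 72 bases, with a second Y box 53 to 49 bases before the start. In H2-K1 they lay 41 to 37 and 16 to 12 bases before the start shown. H2-Aa carried the X2 core on both strands, where the matches overlap, 74 to 67 bases before its start. H2-Eb1 alone held the exact letters of the X box core, 94 to 87 bases before its start. Over the 250 bases before the start, RefSeq windows of 15 of the 20 genes at 1 TPM were searched, 17 windows in all. Cd74, on chromosome 18, was left out of these by design. The Y box letters were found in 16 of the 17 windows and in 33.8% of all 32851 windows. The X2 core was found in 9 of 17 and in 17.8% of all, the interferon element in 3 of 17 (B2m, H2-T22 and H2-T23) and in 3% of all, and the X box core in 1 of 17 and in 1.1% of all. A match describes letters in a window and does not show that a factor binds there. The search took these exact letters only, so a window without a match can still hold a variant of the box or element.

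The loading machinery was uneven in level. Tapbp encodes tapasin, which holds class I molecules at the transporter, and reached 38.84 and 39.80 TPM (39.3 ± 0.679 TPM). Tap1 and Tap2 encode the paired subunits of that transporter. Tap2 reached 7.45 and 9.66 TPM, and Tap1 only 1.96 and 1.81 TPM. The log2 ratio of Tap1 over Tap2 was -2.17 ± 0.35, and Tapbp exceeded Tap1 by 20.9-fold. Most of the Tap2 level lay on a transcript without a coding sequence, described below. Among coding models, Tap1-206 held 1.39 and 1.23 TPM and Tap2-201 1.04 and 1.48 TPM, so their order differed between the libraries. Tap2-203, also coding, held 0.33 and 1.57 TPM. In the second quantification Tap2-201 held 1.47 and 1.67 TPM and Tap1-206 1.38 and 1.05 TPM. The ratio of Tap1 over Tap2 therefore does not give their order in coding RNA.

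Of 24 non-classical class I genes, which serve natural killer cells and unconventional T cells among other roles, 6 reached 1 TPM in both libraries. H2-T23, the mouse Qa-1 gene that natural killer receptors read, led with 9.70 and 8.44 TPM. H2-Q4 reached 7.76 and 6.08 TPM, H2-T22 3.62 and 4.52 TPM, and H2-T24 2.42 and 2.51 TPM. H2-Q6 reached 2.77 and 1.31 TPM. H2-M3, which presents N-formylated peptides, reached 1.14 and 1.68 TPM. H2-Q7, a Qa-2 gene, reached 1.65 TPM in replicate 1 and 0.88 TPM in replicate 2. The group summed to 29.1 ± 2.60 TPM, of which H2-T23 made 31.2%, while the pair of classical heavy chains summed to 97.3 ± 26.0 TPM. In each library the pair of classical chains outweighed all 24 non-classical genes together.

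Lower still were H2-Q2 with 19 and 25 counts, H2-Q1 with 32 and 31, H2-T10 with 26 and 29, H2-Q10 with 20 and 22, and H2-Bl with 6 and 4. The second quantification gave H2-Q10 90 and 50 counts, and a mean of 0.695 TPM against 0.15 TPM. H2-M2 had 3 counts in replicate 1 and 0 in replicate 2, and H2-M5 had 2 and 3. H2-T3, H2-M1, H2-M9, H2-M11 and the H2-M10.1, H2-M10.2, H2-M10.3, H2-M10.4, H2-M10.5 and H2-M10.6 genes had 0 in both. Several H2-M10 genes are known from the vomeronasal organ, and H2-T3 encodes the thymus leukaemia antigen of thymocytes and gut epithelium. H2-Ke6 carries an H2 symbol for its position only and encodes a hydroxysteroid dehydrogenase. It reached 47.55 and 47.03 TPM and differed least between the libraries among the genes with 200 or more counts.

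Class II chains were detected at lower levels. H2-Eb1, a beta chain, reached 8.70 and 8.52 TPM. H2-Aa, the alpha chain of the I-A molecule, reached 8.99 and 7.23 TPM, and H2-Ab1, its beta chain, 4.97 and 5.37 TPM. H2-Aa exceeded H2-Ab1 by 0.64 ± 0.30 on the log2 scale, and H2-Eb1 exceeded it by 0.74 ± 0.10. The H2-Eb1 value covers all models, and 90.0% and 88.6% of its level lay on models not annotated as protein-coding. Its highest coding model, H2-Eb1-203, held only 0.87 and 0.67 TPM, against 3.98 and 4.27 TPM for H2-Ab1-201. H2-Eb2 had 1 count in replicate 1 and 0 in replicate 2. The 5 class II chains summed to 25.84 and 25.46 TPM, a total nearly equal in the 2 animals by this measure. Their counts were 907 and 797, and the second quantification gave 29.27 and 25.82 TPM, both higher in replicate 1.

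H2-Ea-ps, the alpha chain partner of the H2-Eb1 product, had 102 and 106 counts (3.17 and 4.34 TPM). It is annotated as a polymorphic pseudogene, since C57BL/6 mice carry a deletion that abolishes its expression while many other strains make the chain. Reads were not assigned to the C57BL/6J or CAST allele in the tables, so the parent of origin of this RNA was not analysed here. Its reads also moved between transcripts: the coding model H2-Ea-ps-202 took 96.5% of the level in replicate 1 and 45.0% in replicate 2. The model H2-Ea-ps-201 took the other 3.49% and 55.0%.

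Cd74 encodes the invariant chain, which guards the class II groove until endosomes are reached. It was 24.02 TPM in replicate 1 and 21.03 TPM in replicate 2 (22.5 ± 2.11 TPM), 4.35-fold above H2-Ab1, and is encoded on chromosome 18. Its reads lay on Cd74-201 (61.1% and 63.4%) and Cd74-202 (38.9% and 36.6%), both coding. The DM genes, whose product swaps the invariant chain peptide for antigen, were low. H2-DMa reached 1.22 and 1.52 TPM and H2-DMb1 1.03 and 1.54 TPM, and their order differed between libraries. H2-DMb2 had 17 and 26 counts. Of the DO genes, which restrain DM mainly in B cells and thymus, H2-Ob had 20 and 21 counts and H2-Oa 1 and 1.

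The regulators were low. Nlrc5 reached 1.08 and 0.65 TPM from 87 and 60 counts, and Ciita 0.23 and 0.40 TPM from 43 and 26 counts. Nlrc5 was higher than Ciita in both libraries. The DNA-bound partners of both were present in 7 of 7 cases at 1 TPM or more, from Rfx5 (2.02 and 3.09 TPM) to the CCAAT-binding subunit Nfyc (19.00 and 16.75 TPM). Interferon gamma, which induces both regulators, had 0 counts of Ifng in both libraries. Its receptor chain Ifngr2 (46.98 and 56.21 TPM) and the factor Irf1 (6.05 and 6.01 TPM) were detected.

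Replicate ratios were computed from counts scaled with the TMM method of edgeR, and a gene was called as differing when it had 200 or more summed counts, a ratio of at least 2-fold and an exact counting interval that left out a ratio of 1. That interval is built to miss the true ratio in at most 1 of 1000 cases from counting error, and it does not cover the variation between animals. By this rule 0 of 17 tested genes were called, against 1.08% of 10960 genes. With the fold lowered to 1.5, 2 of 17 were called, H2-D1 and H2-Q6, both higher in replicate 1, where 3.53% of all genes were called and 2.52% were higher in replicate 1. Scaled by total counts, H2-D1 fell short at 1.496-fold and 1 gene was called. In the second quantification H2-D1 was 1.48-fold and H2-Q6 1.44-fold higher in replicate 1, neither was called, and H2-Q7 was. The interval alone left out 1 for 6 of 17 genes higher in replicate 1, against 9.11% of all genes. It did so for 0 of 17 genes higher in replicate 2, against 9.01%.

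The 6 genes were B2m, H2-D1, H2-K1, H2-Q4, H2-Q6 and Cd74. Of these, B2m, H2-D1, H2-K1 and H2-Q4 also had an interval without 1 under each of the 3 other scalings and in the second quantification. Cd74 did not when scaled by total counts or in the second quantification, where its intervals ended at 0.0163 and 0.0166, and H2-Q6 did not in the second quantification. The log2 ratio of replicate 2 over replicate 1 was -0.51 for B2m, with an interval from -0.66 to -0.35. It was -0.60 for H2-D1 (-0.73 to -0.48) and -0.45 for H2-K1 (-0.63 to -0.27). H2-Q4 gave -0.39 (-0.72 to -0.06), and H2-Q6 -0.82 (-1.52 to -0.15) from only 143 and 78 counts. Of all genes with 200 or more counts, 3.41% lay at least as far toward replicate 1 as B2m. The share was 2.55% for H2-D1 and 4.23% for H2-K1, and genes as far toward replicate 2 are not in these shares. Class I chains thus had 5 of their 8 tested members among the 6, and a median log2 ratio of -0.42, against 0.01 over all genes. For the 5 tested class II genes the median was -0.08, and Cd74 lay at -0.23 (-0.45 to -0.003). Tapbp (0.14), Tap2 (0.16) and H2-T22 (0.28) lay the other way, with intervals that held 1. H2-Aa lay at -0.39 (-0.81 to 0.01), and its interval held 1 as well. H2-Q7, with 110 and 53 counts, lay at -1.0 (-1.84 to -0.21) from too few counts for the rule. In the second quantification it had 189 and 100 counts, enough for the rule, and was 1.81-fold higher in replicate 1, which is under 2-fold.

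**Figure D2:**
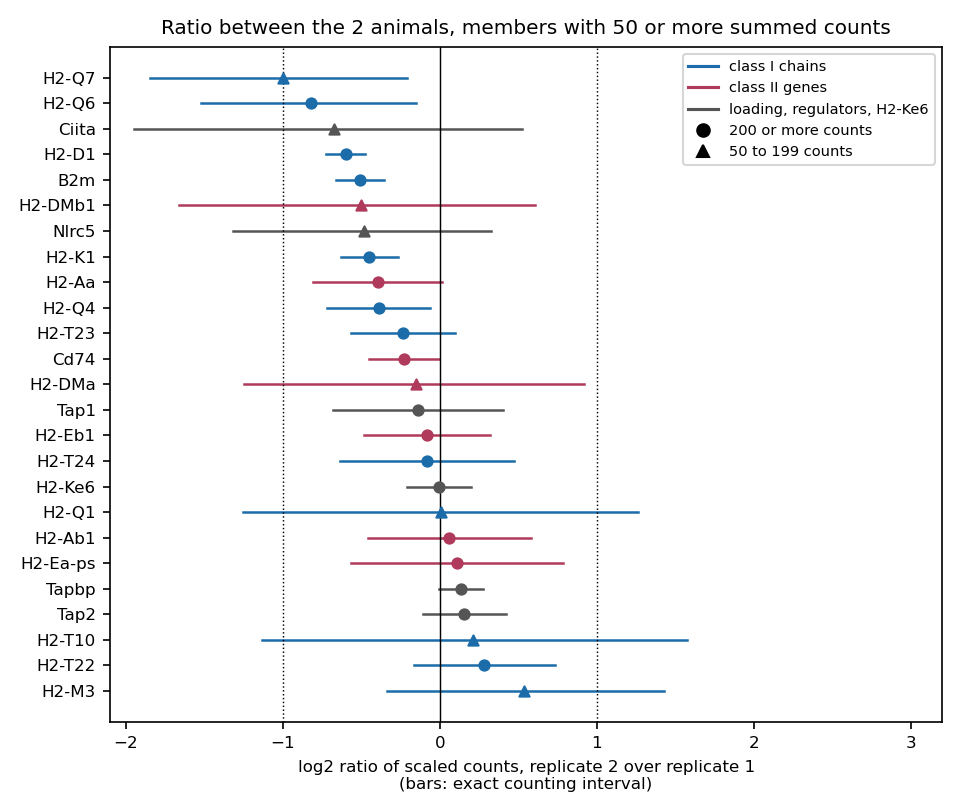
Log2 ratio of replicate 2 over replicate 1 in scaled counts for the 25 genes with 50 or more summed counts; bars are exact counting intervals built to miss in at most 1 of 1000 cases and dotted lines mark 2-fold. B2m, H2-D1 and H2-K1 lie left of 0 at -0.51, -0.60 and -0.45, while Tapbp and H2-Ke6 lie near 0.

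Summed levels of several marker lists were also higher in replicate 1. Among those lists only Chil3, Bpifa1 and Scgb1a1 were called, and none of the neutrophil or B cell markers was. The 4 neutrophil markers summed to 9.61 TPM in replicate 1 and 1.43 TPM in replicate 2, the 5 B cell markers to 6.62 and 4.10 TPM, and the 5 alveolar macrophage markers to 32.72 and 0.09 TPM. Chil3 alone made 31.84 TPM of that sum in replicate 1, where Ear2 had 13 counts, Ear1 and Marco 4 each, and Siglecf 0. The 5 lung epithelium markers summed to 35.28 and 0 TPM. The 8 macrophage markers summed to 48.06 and 50.40 TPM, of which only Adgre1 was called, with 512 and 193 counts. Endothelial markers were even in sum, at 193 and 194 TPM, and fibroblast markers were 130 and 149 TPM. By the interval alone, the endothelial genes Egfl7 (-0.26), Pecam1 (-0.17) and Kdr (-0.13) were higher in replicate 1, and Cdh5 (0.11) in replicate 2. The 7 dendritic cell markers summed to 4.57 and 4.30 TPM, mostly Zbtb46, the 7 T cell markers to 2.00 and 1.64 TPM, and the 4 natural killer cell markers to 0.59 and 0.17 TPM. Thymic epithelium markers held 1 count in each library, with Foxn1 and Psmb11 at 0. The part of these cells in the class I and class II levels was not tested, and in bulk tissue fewer cells of a type cannot be told apart from less RNA per cell.

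**Figure D3:**
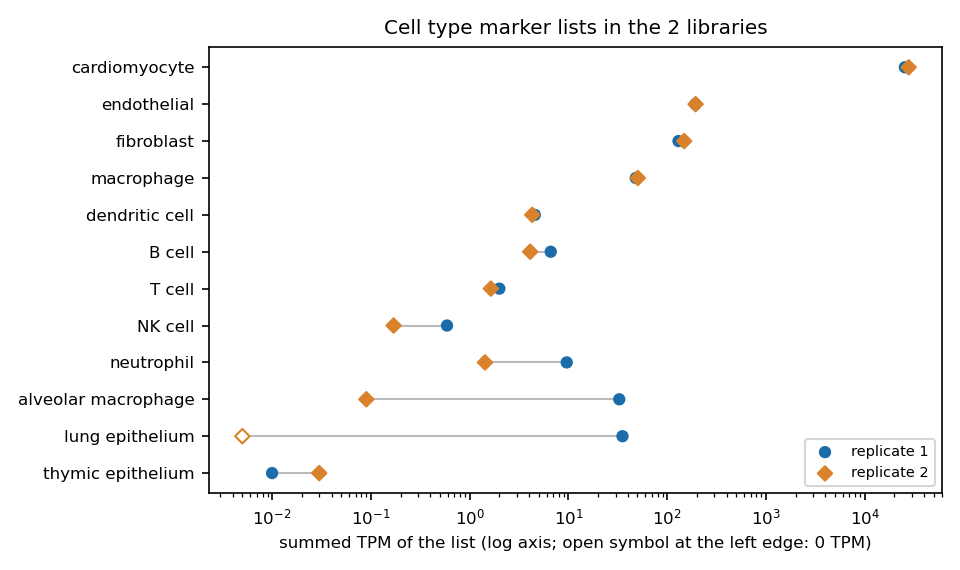
Summed level (TPM, log axis) of the marker list for each cell type, 1 point per library, with an open symbol at the left edge for 0. The lung epithelium sum (35.28 TPM, almost all Bpifa1 and Scgb1a1) and the alveolar macrophage sum (32.72 TPM, almost all Chil3) of replicate 1 were at or near 0 in replicate 2, while endothelial and cardiomyocyte markers were close in both.

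Other steps of the pathway showed few differences between the animals. The 5 genes of the immunoproteasome and its activator, which cut peptides for class I, held 0 called genes: Psme1 led with 96.79 and 116.65 TPM, Psmb9 had 4.48 and 3.89 TPM, and Psmb8 3.73 and 4.63 TPM. The standard catalytic subunits Psmb5, Psmb6 and Psmb7 summed to 230.97 and 246.97 TPM. None of the 5 loading chaperones and trimming enzymes was called either. By the interval alone, the chaperones Calr (-0.16, from -0.24 to -0.08) and Pdia3 (-0.27, from -0.38 to -0.15) were higher in replicate 1. The intervals of Canx and the trimming enzyme Erap1 held 1. Higher in replicate 2 by the interval alone were Psme1 (0.18, from 0.05 to 0.31) and the class I-like gene Fcgrt (0.20, from 0.02 to 0.39). So was the receptor chain Ifngr2 (0.20, from 0.10 to 0.30). Creb1, a DNA-bound partner of the regulators, was higher in replicate 1 (-0.35, from -0.57 to -0.14). Of 6 genes that make peptides for class II, 2 were called, both higher in replicate 1: Ctss, the cathepsin that trims the invariant chain, with 6.09 and 2.50 TPM, and Ifi30, a thiol reductase, with 5.42 and 2.73 TPM. The larger cathepsin genes Ctsd and Ctsb did not pass. The 2 ligases March8 and March1, which remove class II from the surface, had 15.8 and 0.52 TPM. Fcgrt and Hfe, class I-like genes outside the H2 symbols, had 24.8 and 23.1 TPM, while Mr1 and Cd1d1 had 2.58 and 1.14 TPM and Azgp1 had 0 counts. Of the co-stimulation genes, Cd274 reached 1.04 and 1.37 TPM, and Cd86, Cd80 and Cd40 stayed below 1 TPM.

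Transcript shares within a gene were those deposited with the transcript tables. Among the 17 genes with 200 or more counts, the leading transcript held over 50% in both libraries for 12, and 14 leading transcripts were protein-coding. The exceptions were H2-Eb1, Tap2 and H2-K1. For H2-Eb1 the model H2-Eb1-205, annotated as a target of nonsense-mediated decay, held 76.9% and 74.0%, and it led in the second quantification as well (86.4%). For Tap2 the retained-intron model Tap2-202 held 81.7% and 65.8%, against 49.5% in the second quantification. For H2-K1 the retained-intron model H2-K1-215 held 53.5% and 48.2%, but only 30.8% in the second quantification, where the coding model H2-K1-205 led with 40.05%. In H2-K1 non-coding models held 54.7 ± 4.72% of the TPM but only 24.3% of the counts, since TPM weighs each read of a shorter model more. Whether these models were made as such or took reads of unspliced RNA or of the CAST allele was not tested. The other leading models were coding, among them H2-D1-202 (87.4%), H2-T23-201 (97.4%), H2-Aa-201 (95.0%), H2-Ab1-201 (79.8%), H2-Q4-201 (75.5%), Tap1-206 (69.3%) and H2-T24-201 (81.1%). Leading models with a wide spread were H2-Q6-202 (54.4% and 84.2%) and H2-Ke6-211 (58.6% and 46.5%), with H2-T22-203 at 47.6% and Tapbp-206 at 50.3%. In the second quantification H2-T22-202 led with 61.7%, against 27.2% for H2-T22-203, and H2-Ke6-201 led with 43.1%. The share of the leading model moved by more than its SD there for 11 of 17 genes. B2m has a single model.

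**Figure D4:**
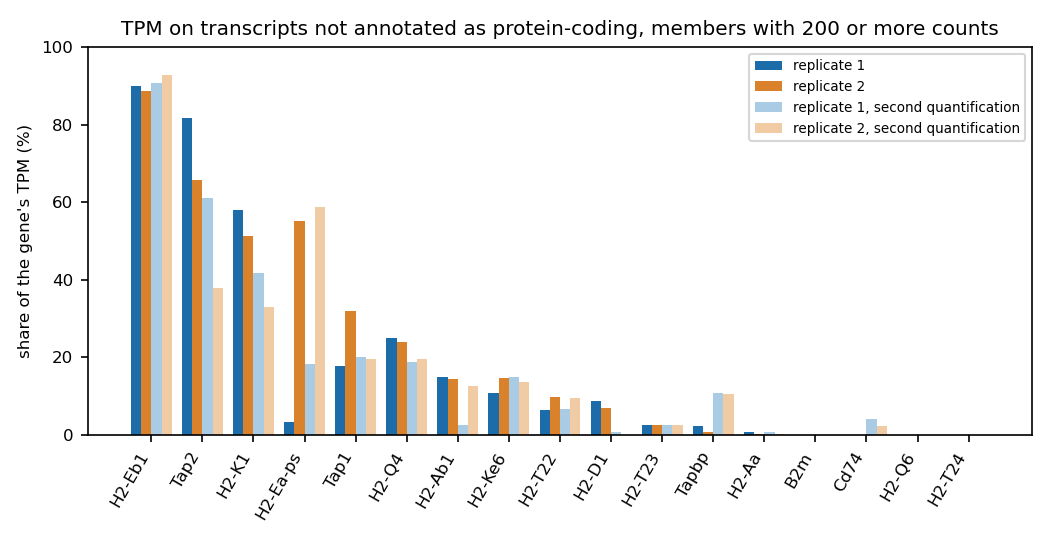
Share of each gene's TPM (%) on transcripts not annotated as protein-coding, for the 17 genes with 200 or more summed counts, with 1 bar per library and pale bars for the second quantification. H2-Eb1 (90.0% and 88.6%), Tap2 (81.6% and 65.8%) and H2-K1 (58.1% and 51.4%) have the highest means, and H2-Ea-ps differs most between libraries (3.47% and 55.1%).

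The H2 genes are near copies of one another, so reads can be shared between them, and strain differences from mm10 add to this. Among all GENCODE M21 transcripts, the share of a gene's 31-base words found in no other gene was 23.9% for H2-Ke6, which a read-through model on its strand overlaps, 49.0% for H2-T22 and 49.7% for H2-Q6. It was 73.3% for H2-D1 and 77.2% for H2-K1, which share words with each other, and 100% for B2m. With words as long as the fragment length implied by the deposited effective lengths, the share rose to 91.4% for H2-T22, 89.5% for H2-Q6, 96.4% for H2-D1 and 99.1% for H2-K1. The class II chains stood at 98.6% or more with 31 bases. The deposited posterior SD of the count, a measure of doubt in assigning reads, was 0.16% of the count for H2-K1 in replicate 1, 0.24% for H2-D1, 2.87% for H2-Q6 and 20.8% for H2-Q1, and 0 for B2m, Cd74 and the class II chains. These values describe mm10 sequence only. H2-DMa shares 360 exon bases with Brd2 on the opposite strand, a gene at 22.64 and 25.07 TPM, and Ciita shares 329 with Dexi, at 13.48 and 14.27 TPM. Whether the counting used strand is not stated, so the levels of H2-DMa and Ciita may hold reads of those genes. CAST alleles differ from mm10 in this region, and how many of their reads were lost or moved between genes was not analysed here. H2-Q4 and H2-Q2 also shared sequence, with 61.6% and 67.8% of their 31-base words found in no other gene. The levels of H2-Q1, H2-Q2, H2-Q4, H2-Q6, H2-Q7, H2-Q10, H2-T10, H2-T22, H2-DMb1, H2-DMb2 and H2-Ke6 are therefore uncertain. Those of H2-K1, H2-D1 and the class II chains are open to the same effect of CAST alleles, which was not analysed. In the second quantification H2-Q1 had 0.182 TPM against 0.50 TPM, and H2-DMb1 2.04 TPM against 1.28 TPM.

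**Figure D5:**
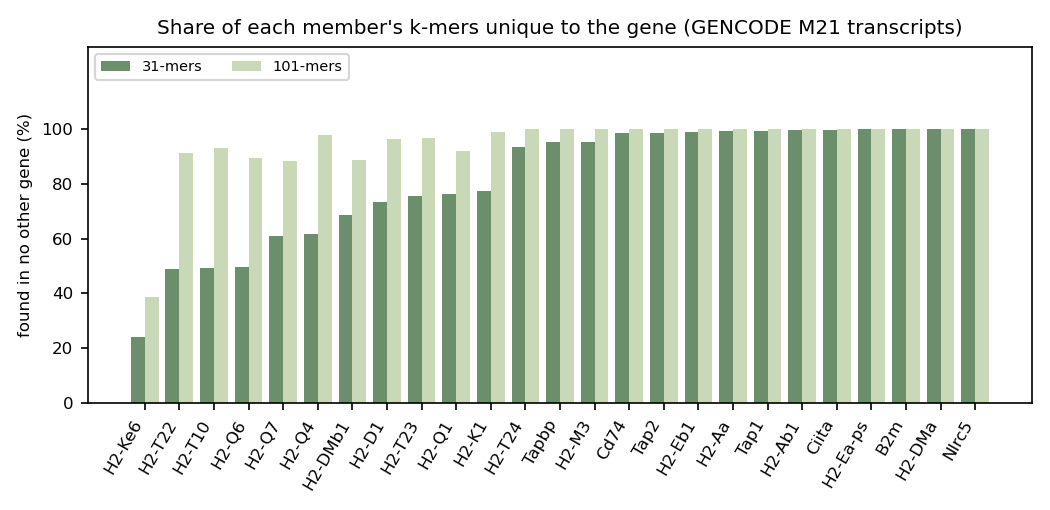
Share (%) of each gene's 31-base words and fragment-length words found in no other gene among GENCODE M21 transcripts, for the 25 genes with 50 or more summed counts. H2-Ke6 has the lowest shares (23.9% and 38.6%), H2-T22, H2-T10 and H2-Q6 also hold under 50% at 31 bases, and B2m, H2-DMa, H2-Ea-ps and Nlrc5 reach 100%.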

How the data were processed

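Total RNA of 2 heart libraries was quantified by the authors in gene and transcript tables. Per the file headers, the deposited tables hold expected counts and TPM in the column layout of RSEM, with the transcript's percent of its gene and the posterior SD of the count as deposited. In another deposited transcript table of each library, called the second quantification, values are estimated counts and TPM laid out as by kallisto. The build was mm10 with GENCODE M21, per the listings that accompany the deposited tables. The aligner, tool versions and use of strand in counting were not given in the sources used here.

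Counts were rounded and scaled with edgeR 4.0.16 (TMM) in R 4.3.3. DESeq2 1.42.0 gave an alternative scaling. Python 3.11.15 was used with scipy 1.17.1, numpy 2.4.6 and pandas 2.3.3 for the other steps. Rows with numeric identifiers, with 1 and 0 counts, were left out. Ratio intervals are exact Clopper-Pearson intervals on the 2 counts and cover counting error only, since reads carry no molecular identifiers. Steps were tested on simulated data. Depth was 42.13 M and 40.07 M counts.

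All genes with 10 or more summed counts are named with values, the rest by name and count, and at most 4 genes of each context list, with those called and those at 0. The members and lists were chosen with earlier results of these data known. Alternatives were the second quantification, other TPM denominators, scalings, count minimums, folds and each library alone. Promoters were matched by symbol to RefSeq for 34 of the 44 genes.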

Additional observations from a re-analysis of the deposited data

How the results depend on the processing

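TPM rescaled over nuclear protein-coding genes, which hold 35.81% and 36.64% of the TPM, raised the levels of all 30 genes named with values. The median level of the 44 genes went from 0.715 to 1.98 TPM. The sums went to 269.3 TPM for classical class I, 80.4 TPM for other class I, 70.8 TPM for class II chains and 10.08 TPM for peptide exchange. In the second quantification the class II chains summed to 27.5 TPM and the exchange genes to 4.38 TPM, and the log2 ratio of H2-K1 over H2-D1 turned to 0.0906 and that of H2-DMa over H2-DMb1 to -0.57. With each library alone the latter ranged from -0.0189 to 0.244. Leaving out genes with most 31-base words shared lowered other class I to 22.6 TPM. Calls between the animals rose from 0 of 17 to 1 of 25 (H2-Q7) at 50 summed counts. They rose to 1 of 34 with no minimum and to 2 of 17 at 1.5-fold. The share of all genes called was 1.08% by the main rule and 3.53% at 1.5-fold. It was not computed for the lower count minimums, the other scalings or the second quantification. The H2-Q7 call lay at the threshold and fell to 1.97-fold under total counts and 1.81-fold in the second quantification. In alternatives chosen after seeing the data, calls at 1.5-fold went from 2 to 1 under total counts (H2-Q6) and to 1 in the second quantification (H2-Q7). The genes whose interval left out 1 went from 6 to 7 under DESeq2 size factors and spike-ins (with H2-Aa), stayed at 6 under total counts, with Tapbp in place of Cd74 and higher in replicate 2, and went to 5 in the second quantification. There, 12 of 30 gene levels and 11 of 17 leading transcript shares moved by more than the SD. The causes were not tested. All 25 replicate ratios kept within their intervals under DESeq2 size factors, total counts, spike-ins and the second quantification. No paired analysis was possible because the series has a single group. Genes under 50 counts limit any statement on a difference between the animals.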

Other observations

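The 8 H2 gene models without a protein-coding transcript were outside the rule above. H2-T-ps held 162.6 and 85.4 expected counts (4.83 and 2.69 TPM), and H2-K2 71.7 and 24.8 counts (1.60 and 0.73 TPM), both higher in replicate 1, as the classical class I genes were. H2-Q5 held 22.1 and 10.8 counts. H2-M6-ps held 0 and 1, and H2-Q3, H2-Pa, H2-Pb and H2-M10.5-ps1 held 0 in both. These models were annotated as pseudogenes, and reads of near copies could have been assigned to them.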
